A study of Mus musculus with 11 samples.

Results

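The interaction between genotype and stage was measured across all 11 arrays of the series, in 4 groups that cross 2 cell lines with 2 stages. It is the difference between the lines in embryoid bodies minus the same difference in stem cells, so it equals the change from stem cells to embryoid bodies in the deleted line minus that change in the control line. The members were the 11 samples themselves, 11 of 11 in the series, so no sample was chosen by its values. A positive interaction means that a transcript stood higher in deleted relative to control embryoid bodies than it did in stem cells.

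The control line is a male C57BL/6 mouse embryonic stem cell line, titled Cx43/45 flox. The deleted line, titled Cx43/45 del, lacks exon 3 of Cx43 and of Cx45 and carries lacZ under the Cx43 promoter and eGFP under the Cx45 promoter. The lines therefore differ in the reporters as well as in the deletions, and each genotype is represented by 1 described line. Stem cells (2 control and 2 deleted arrays) came from wells grown with leukemia inhibitory factor on a feeder layer of mouse embryonic fibroblasts. Embryoid bodies (3 control and 4 deleted arrays) came from hanging drops of 2000 cells in medium listed without that factor, were harvested at day 6 and were pooled, about 300 to a sample. The labels do not say whether feeder cells were removed from the stem cell pellets, and they mention no feeder layer for embryoid bodies. The submitters call the replicates biological, without naming separate cultures, and p-values cover only the spread among these samples, which may be technical.

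Connexins are the subunits of gap junctions, channels that let ions and small metabolites pass directly between neighbouring cells. Connexin43, encoded by Gja1, and connexin45, encoded by Gjc1, are both made by mouse embryonic stem cells. Embryoid bodies are aggregates that form an outer layer of primitive endoderm, the extraembryonic epithelium that makes a basement membrane and gives rise to visceral and parietal endoderm. The series title names this layer as the tissue of interest. A genotype difference present to the same degree in stem cells and in embryoid bodies cancels in the interaction, which is why all 4 groups enter it. The array probes carry identifiers only, and no source used here pairs them with genes. Genes, the deleted genes included, marker lists and probe sequences were therefore not analysed here, and the labelled cell types have no check of that kind.

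A bead array gives the brightness of labelled cRNA on each probe, so values are intensities, and the number of arrays limits precision. Between 39.7% and 43.0% of the 45281 probes were detected on an array at a detection p-value under 0.05, and mean deposited intensity ranged from 381 to 503 units. The median intensity of probes with a detection p-value of at least 0.5, a measure of array background, was 109.5 to 117.7 units in control stem cells, 116.7 to 121.2 in deleted stem cells, 107.8 to 109.9 in control and 102.5 to 107.2 in deleted embryoid bodies. On the log2 scale this background itself had an interaction of -0.12 before normalization.

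The difference between the lines was not the same at both stages for many transcripts. Of 23268 probes tested, 2693 passed an adjusted p of 0.05 in limma, which is 11.6%. The interaction was more positive for 1306 of them, 5.61% of the probes tested, and more negative for 1387, 5.96%. It reached at least 1 on the log2 scale, a 2-fold ratio of fold changes, in 1389 calls, or 5.97% of the probes tested. Over all tested probes the interaction had a median of 0.02, and 90% of the values lay between -0.94 and 0.88. The smallest interaction called was 0.36 in absolute size and the median size of the calls was 1.02.

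Large called interactions were more often negative than positive. Of 285 calls of at least 2 on the log2 scale, 180 were negative and 105 positive. These calls were 94.1% of the 303 tested probes of that size. At 3 or more there were 41 negative calls and 8 positive ones, together 90.7% of 54 tested probes. Nearly all tested probes of these sizes were thus called. At 2 or more the negative calls outnumbered the positive ones in all 19 alternative fits. Among probes detected on every array (detection p under 0.01 on all 11) the counts at 2 or more were 119 and 85. The balance over all calls was less firm, since median scaling in place of quantile normalization gave 892 positive and 815 negative calls.

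The precision of the interaction rested on the stem cell arrays. With 2, 2, 3 and 4 arrays in the groups, each stem cell group contributed 31.6% of the variance of the interaction, control embryoid bodies 21.1% and deleted embryoid bodies 15.8%. The standard error of the interaction was 1.65 times that of the difference between the embryoid body groups alone, with a median of 0.18 on the log2 scale over the probes tested. The median SD within a group was 0.10 in control stem cells, 0.12 in deleted stem cells, 0.13 in control embryoid bodies and 0.12 in deleted embryoid bodies, on the log2 scale.

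Calls were sorted by the change from stem cells to embryoid bodies that was fitted in each line. These classes use the same arrays as the test and describe the shape of the interaction, with no further test. In 1466 calls, 54.4%, the fitted changes of the 2 lines had opposite signs. In 1005, or 37.3%, they had the same sign and were smaller in the deleted line, and in 222, or 8.24%, they had the same sign and were larger in the deleted line. Over all probes tested these shares were 31.5%, 43.4% and 25.1%. Because the calls were selected on the difference of the 2 stage changes, changes of opposite sign or unlike size are favoured by the selection.

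**Figure D1:**
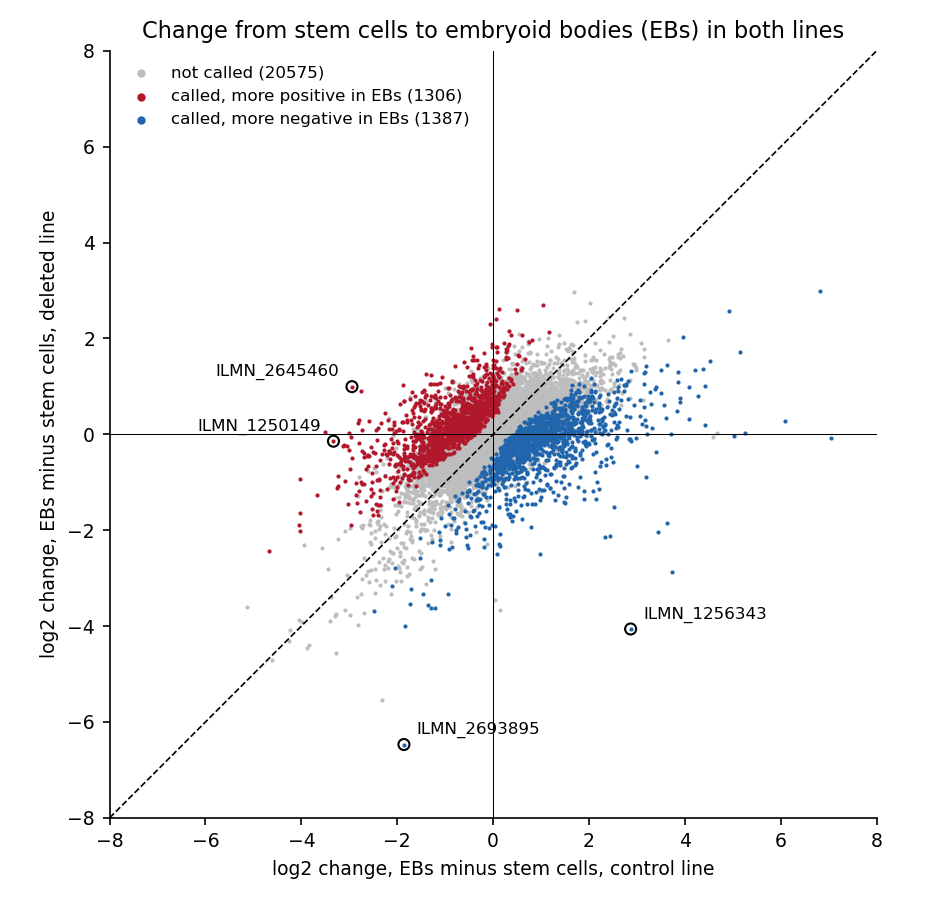
Log2 change from stem cells to embryoid bodies in the control line (horizontal axis) and in the deleted line (vertical axis), 1 point per tested probe. Red and blue points are the 1306 more positive and 1387 more negative interactions, grey points were not called, the dashed line marks equal change, and circles mark the 4 named probes. Called probes lie off the dashed line on both sides, and in 1395 of them the change is at least 0.5 in the control line and under 0.5 in the deleted line.

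The scatter of both stage changes shows a wide spread along the control axis and a narrower one along the deleted axis. In 1395 calls, 51.8%, the change was at least 0.5 on the log2 scale in the control line and under 0.5 in the deleted line, against 18.2% of the probes tested. The converse held in 447 calls, 16.6%, against 7.40% of the probes tested. Both lines changed by at least 0.5 in 579 calls, 21.5%, against 13.8% of the probes tested. Both changed by less in 272 calls, 10.1%, against 60.7% of the probes tested. The 550 probes with a positive change in both lines, smaller in the deleted one, had a median log2 change of 1.39 in the control line and 0.25 in the deleted line. Of these 550, 410 changed by less than 0.5 in the deleted line. The 455 probes with a negative change in both lines, smaller in the deleted one, had medians of -1.33 and -0.30, and 321 of them changed by less than 0.5 in the deleted line.

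Opposite signs often rested on a small change in the deleted line, which was under 0.5 in 930 of the 1466 calls, or 63.4%. Over all tested probes with opposite signs it was under 0.5 in 6511 of 7336, or 88.75%. A small change in the deleted line was thus less frequent among the calls. Both lines changed by at least 0.5 in 245 of the 1466 calls and in 297 of the 7336 tested probes. A sign near 0 is no evidence of a change in that line. The 719 probes with a positive change in the control line and a negative one in the deleted line had medians of 0.66 and -0.33. The 747 probes of the converse kind had medians of -0.58 and 0.37. Both lines changed by at least 1 on the log2 scale in 28 of the 719 and in 9 of the 747. All 37 probes tested that changed by at least 1 in opposite directions were called. Such an interaction is at least 2 on the log2 scale by construction.

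The fitted change was larger in the deleted line in 686 calls, 25.5%, against 38.1% of the probes tested. Of these, 464 had opposite signs and 222 the same sign. The 104 probes with a positive change in both lines had a median of 0.12 in the control line and 1.07 in the deleted line, and 93 of them changed by less than 0.5 in the control line. The 118 probes with a negative change in both lines had medians of -0.36 and -1.39.

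**Figure D2:**
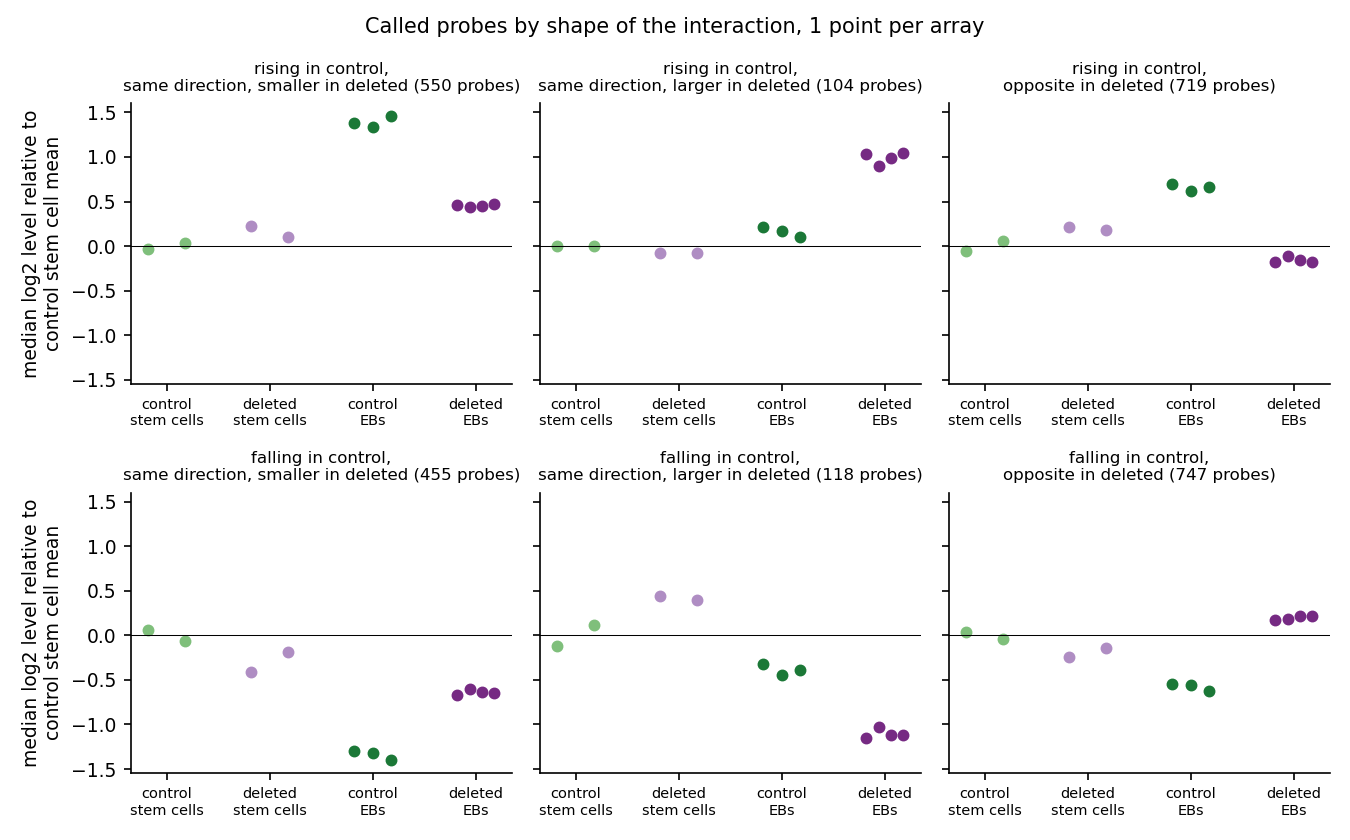
Median log2 level of the called probes of each shape on every array, relative to the mean of the control stem cell arrays, with 1 point per array and the 4 groups along the horizontal axis. In the 550 probes that changed upward less in the deleted line, the control embryoid bodies stood at 1.34 to 1.46 and the deleted ones at 0.44 to 0.47. Group levels of the embryoid bodies do not overlap in any panel, but the probes were called and sorted on these same arrays, which favours such separation. Embryoid body arrays did not overlap in 95.8% of all calls and in 32.8% of the probes tested.

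The plot of median levels by array shows how each class was distributed over the arrays. For the 719 probes with opposite signs and a positive control change, the median level relative to control stem cells was 0.70, 0.62 and 0.66 on the 3 control embryoid body arrays. It was -0.17, -0.12, -0.15 and -0.18 on the 4 deleted arrays. The 2 deleted stem cell arrays of this class stood at 0.21 and 0.18, on the other side of the control stem cells from the deleted embryoid bodies. For the 747 probes of the converse kind the control embryoid bodies lay at -0.55, -0.55 and -0.63 and the deleted ones at 0.18, 0.18, 0.22 and 0.22, with deleted stem cells at -0.25 and -0.14. The deleted stem cell arrays were farthest apart for the 455 probes with a smaller negative change in the deleted line, at -0.42 for replicate 1 and -0.19 for replicate 2.

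The interaction has 2 parts, the genotype difference in embryoid bodies and that in stem cells, and the embryoid body part was the larger in 2385 of 2693 calls, or 88.6%. In the 1306 positive calls the median difference, deleted minus control, was 0.74 in embryoid bodies and -0.22 in stem cells. In the 1387 negative calls it was -0.81 and 0.20. Over all tested probes both medians were near 0, at 0.01 and -0.01. The median absolute size over all tested probes was 0.16 in embryoid bodies and 0.12 in stem cells. How often the embryoid body part was the larger was not counted over all tested probes, so the 88.6% has no such share beside it. The stem cell difference reached 0.5 in absolute size in 392 calls, 14.6%, and 1 in 33, all of them negative interactions. These counts were not made over all tested probes either. Over all tested probes the stem cell difference ran from -1.30 to 2.20, and a positive one enters the interaction with a negative sign. Because the calls were selected on the difference of these 2 parts, parts of opposite sign are favoured by the selection. The stem cell values are therefore a description of the calls and not evidence of a difference in stem cells.

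One group often stood apart from the other 3. A group was counted as apart when its mean lay at least 1 on the log2 scale from the nearest other group and by more than the range of the other 3. This held for 595 calls, 22.1%, and for 770 probes tested, 3.31%. The group was control embryoid bodies in 489 calls of 569 tested, deleted embryoid bodies in 97 of 136, control stem cells in 8 of 57 and deleted stem cells in 1 of 8. Control embryoid bodies were thus the most frequent group before calling as well. A group that stands apart by this rule gives an interaction in the group means by definition, so the rule favours a call. The higher share among calls than among probes tested is therefore a description and not a separate finding. Control embryoid bodies stood above the rest in 305 calls, whose median log2 levels were 7.50 in control stem cells, 7.61 in deleted stem cells, 9.71 in control and 7.70 in deleted embryoid bodies. They stood below the rest in 184 calls, with medians of 10.23, 10.01, 8.22 and 9.94 in the same order. Deleted embryoid bodies stood above the rest in 61 calls, at a median of 9.72 against 8.01 to 8.04, and below in 36, at 7.98 against 9.74 to 10.04.

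The pattern with control embryoid bodies above the rest thus joined 3 groups at a low level. At a median of 7.50 in control stem cells, background is a larger part of the intensity than at bright levels, which compresses fold changes. The sizes of such interactions may therefore be compressed, which was not tested for this pattern. The pattern with control embryoid bodies below the rest lay between bright levels.

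The direction of the interaction can depend on the scale of the values unless the order of the groups crosses. Stage changes had opposite signs in 1466 calls, and genotype differences had opposite signs at the 2 stages in 2278. At least 1 of these held in 2493, or 92.6%, against 65.2% of the probes tested. The selection of the calls favours opposite signs, so this higher share is a description and not a separate finding. The signs are those of fitted values, and limma called 0 genotype differences in stem cells. A difference of differences computed from group means of linear intensity had the sign of the log2 interaction in all calls but 1. Among all tested probes the sign differed between scales in 603, or 2.59%. Between these 2 scales the direction thus differed in that 1 call. In 200 calls, 7.43%, neither order crossed, and their direction is not fixed under every rescaling.

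Calls were also described by detection. In 1840 calls, 68.3%, the probe was detected on every array, and these were 15.6% of the 11785 probes so detected. Among the remaining 11483 tested probes 853, or 7.43%, were called. Counting a group as detected at a p under 0.01 on each of its arrays and as undetected at a p of at least 0.05 on each, 98 tested probes were detected in control embryoid bodies alone and 47 of these were called. A further 66 were detected in every group except control embryoid bodies, and 33 of these were called. Of 28 probes detected in deleted embryoid bodies alone 10 were called, and of 12 undetected there alone 3 were called. A pattern with 1 group unlike the other 3 favours a call by its definition. Probes detected in 1 group alone also entered the test mainly through that group. These counts are therefore a description and not evidence about the calls. In 735 calls, 27.3%, at least 1 group had mixed detection, and these were 6.61% of the 11127 tested probes of that kind.

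The share of probes called was higher among brighter probes. Tested probes were divided into 5 equal bins by mean log2 intensity over all arrays, and 0.71% of the dimmest bin were called, then 5.78%, 15.0%, 18.7% and 17.7%. The dimmest bin spanned a mean of 113.7 to 128.9 units, close to background, and the brightest began at 638.9. The median size of the interaction over all probes of a bin was 0.10 on the log2 scale in the dimmest and 0.42 in the brightest, and the median standard error was 0.13 and 0.24. In the 2 dimmest bins negative calls outnumbered positive ones, at 27 against 6 and 169 against 100. In the brightest bin there were 420 positive and 403 negative calls.

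**Figure D3:**
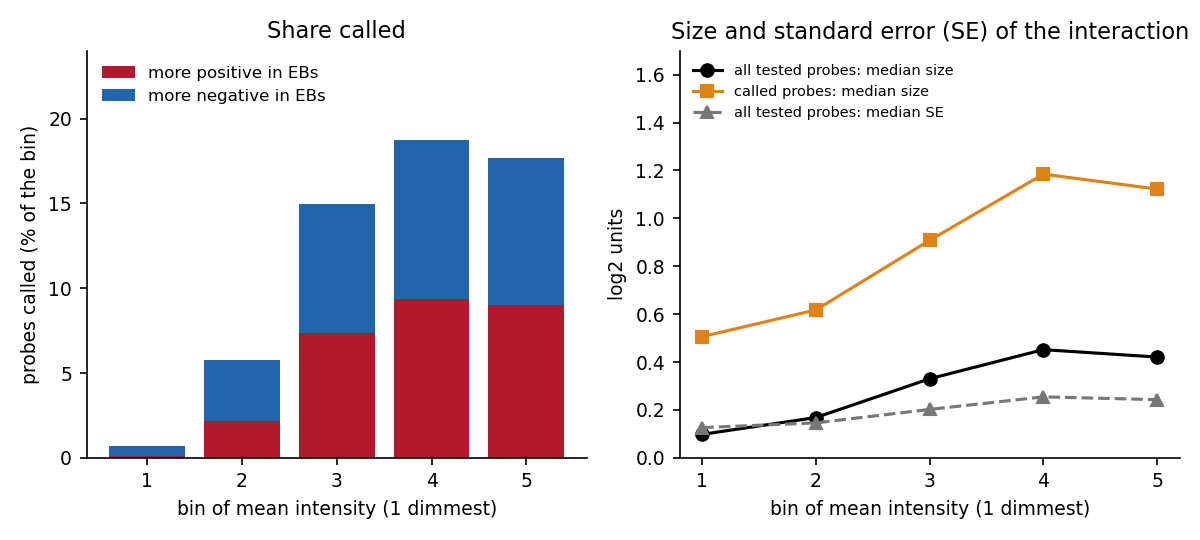
Left, the percentage of probes called in each of 5 bins of mean intensity, divided into more positive (red) and more negative (blue) interactions. Right, the median absolute interaction of all tested and of called probes and the median standard error, in log2 units. The share called climbs from 0.71% in the dimmest bin to 18.7% in bin 4.

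To illustrate the shapes, 4 probes were followed array by array. They are the largest called interactions in each direction with opposite and with same-direction stage changes, among probes detected on every array. Picking the largest calls favours embryoid body groups that do not overlap. Such groups occurred in 95.8% of all calls and in 32.8% of the probes tested. Levels are quantile-normalized intensity units, and adjusted p-values are limma's over all 23268 probes. Their genotype differences in stem cells had limma adjusted p from 0.73 to 0.91, but limma called 0 of all tested probes in that contrast, so this says nothing about these 4. That contrast had 2091 probes at an unadjusted p under 0.05, and 2142 with trended robust moderation, which also called 0. Without deleted stem cell replicate 2 it had 498 calls and without control stem cell replicate 2 it had 27. The change between stages passed for 37.8% of the tested probes in the control line and for 22.3% in the deleted line.

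ILMN_2645460 was the most positive interaction with opposite signs among probes detected on every array. It measured 4727 and 2357 units on the control stem cell arrays and 3441 and 2174 on the deleted ones. Control embryoid bodies gave 719, 499.5 and 227 units, and deleted ones 4464, 5186, 6051 and 6286. The embryoid body groups did not overlap, and the stem cell groups did. In the control line it fell by 2.94 on the log2 scale (SE 0.45, limma adjusted p = 0.00073), and in the deleted line its change was 0.99 ± 0.42 (SE, limma adjusted p = 0.13). The interaction was 3.94 ± 0.62 (SE, limma adjusted p = 0.0041), and lay between 3.44 and 4.44 over 19 alternative fits.

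ILMN_1250149 was the most positive interaction with changes of the same sign among those probes. It stood at 9673 and 11365 units in control stem cells and at 5799 and 10073 in deleted ones. It read 1668, 1388 and 489 units in control embryoid bodies and 7022, 8644, 5983 and 6297 in deleted ones. All deleted bodies were above all control bodies, and the 2 deleted stem cell arrays were uneven. It fell by 3.33 in the control line (log2, SE 0.45, limma adjusted p = 0.00037) while the deleted line gave -0.14 ± 0.42 (SE, limma adjusted p = 0.85). Its interaction of 3.19 ± 0.62 (SE, limma adjusted p = 0.011) did not pass without deleted stem cell replicate 1, at 2.79 with a limma adjusted p of 0.053.

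ILMN_1256343 was the most negative interaction with opposite signs among probes detected on every array. Control stem cells read 2020 and 2335 units and deleted stem cells 3139 and 2413. Control embryoid bodies read 18709, 14248 and 14941 units and deleted ones 143.9, 254.6, 140.9 and 143.1. The 2 lines were on opposite sides of the stem cell levels, with a wide gap between the embryoid body groups. It rose in the control line by 2.87 ± 0.25 (log2, SE, limma adjusted p = 3.8e-05) and in the deleted line it fell by 4.06 (SE 0.24, limma adjusted p = 7.6e-06). The interaction was -6.93 ± 0.35 (SE, limma adjusted p = 1.5e-05). The deleted bodies were near background, so this size is compressed, and background correction with neqc gave -8.40.

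ILMN_2693895 was the most negative interaction with changes of the same sign among those probes. Control stem cells gave 11951 and 17914 units, and deleted stem cells 18168 and 21419. Control embryoid bodies gave 11654, 5090 and 1102 units, and deleted ones 165.3, 311.6, 200.5 and 237.1. The deleted bodies were all below the control bodies, which themselves spread widely. It fell by 6.47 in the deleted line (log2, SE 0.71, limma adjusted p = 0.00028), and its change of -1.86 ± 0.75 in the control line did not pass (limma adjusted p = 0.076). The interaction was -4.61 ± 1.03 (SE, limma adjusted p = 0.020). It did not pass without control stem cell replicate 1 (-4.33, limma adjusted p = 0.093) or without deleted stem cell replicate 1 (-4.74, limma adjusted p = 0.063).

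**Figure D4:**
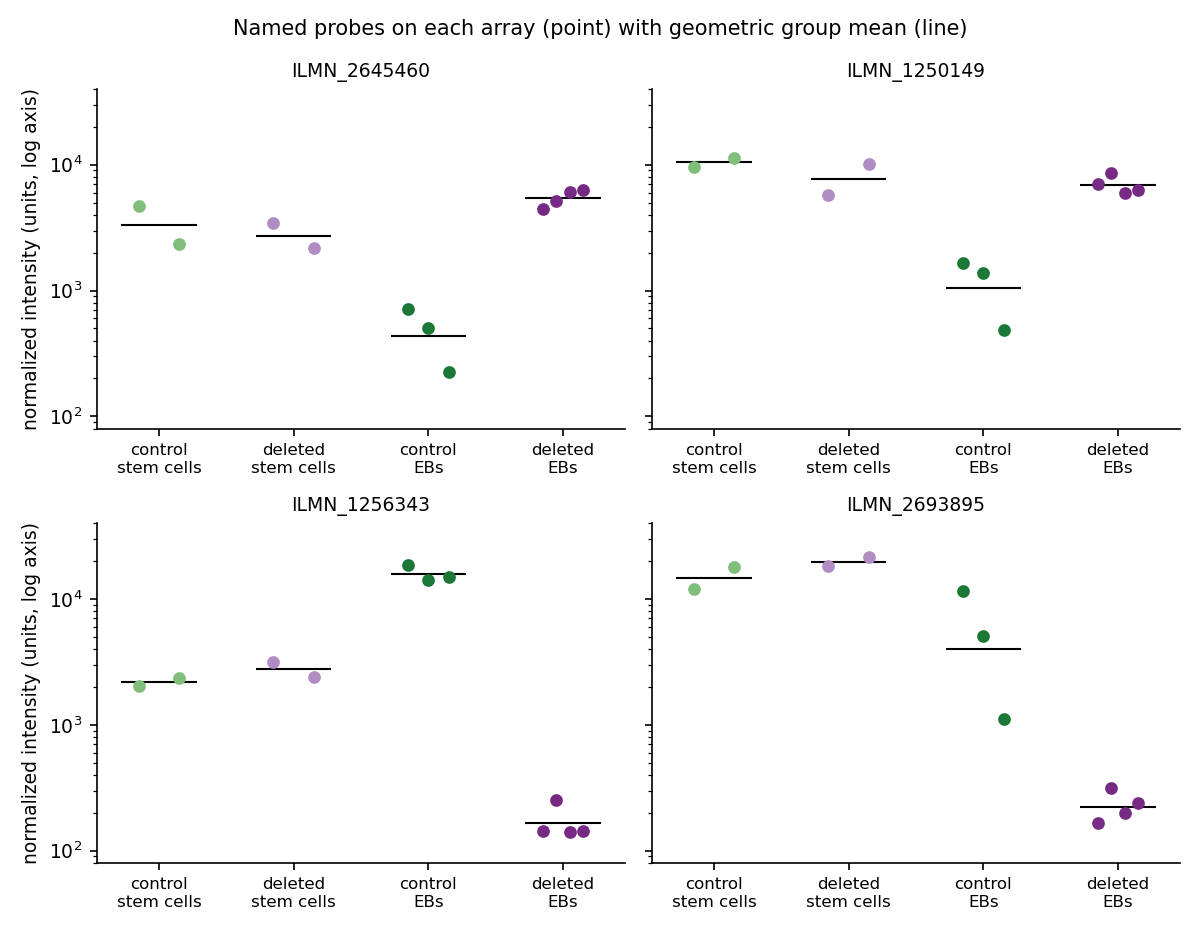
Normalized intensity of the 4 named probes on a log axis, with 1 point per array in 4 groups and a line at the geometric mean of each group. The deleted embryoid bodies of ILMN_1256343 lie between 140.9 and 254.6 units and those of ILMN_2645460 between 4464 and 6286.

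The number of calls turned mostly on which stem cell arrays were used. Leaving out control stem cell replicate 1 gave 958 calls and leaving out deleted stem cell replicate 1 gave 1339. Leaving out replicate 2 of these groups gave 2269 and 3420. Each of the 7 embryoid body arrays left out in turn gave between 1823 and 2587, and the positive calls numbered 840 without deleted embryoid body replicate 3. A group left with 1 array is assumed to vary like the others.

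A smaller set of interactions was common to all of these fits. In total 857 probes, 31.8% of the calls, were called in every fit that left out 1 array. Of these, 357 were positive and 500 negative, 694 reached at least 1 on the log2 scale, and 512 had opposite stage changes. Their median size was 1.45, against 1.02 for all calls. With the other 8 alternatives added, 812 probes were called throughout, and they include ILMN_2645460 and ILMN_1256343. None of the 2693 calls changed sign in any of the 19 alternative fits that tested it (2688 of them were tested under the stricter filter), and these fits share most of their arrays.

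**Figure D5:**
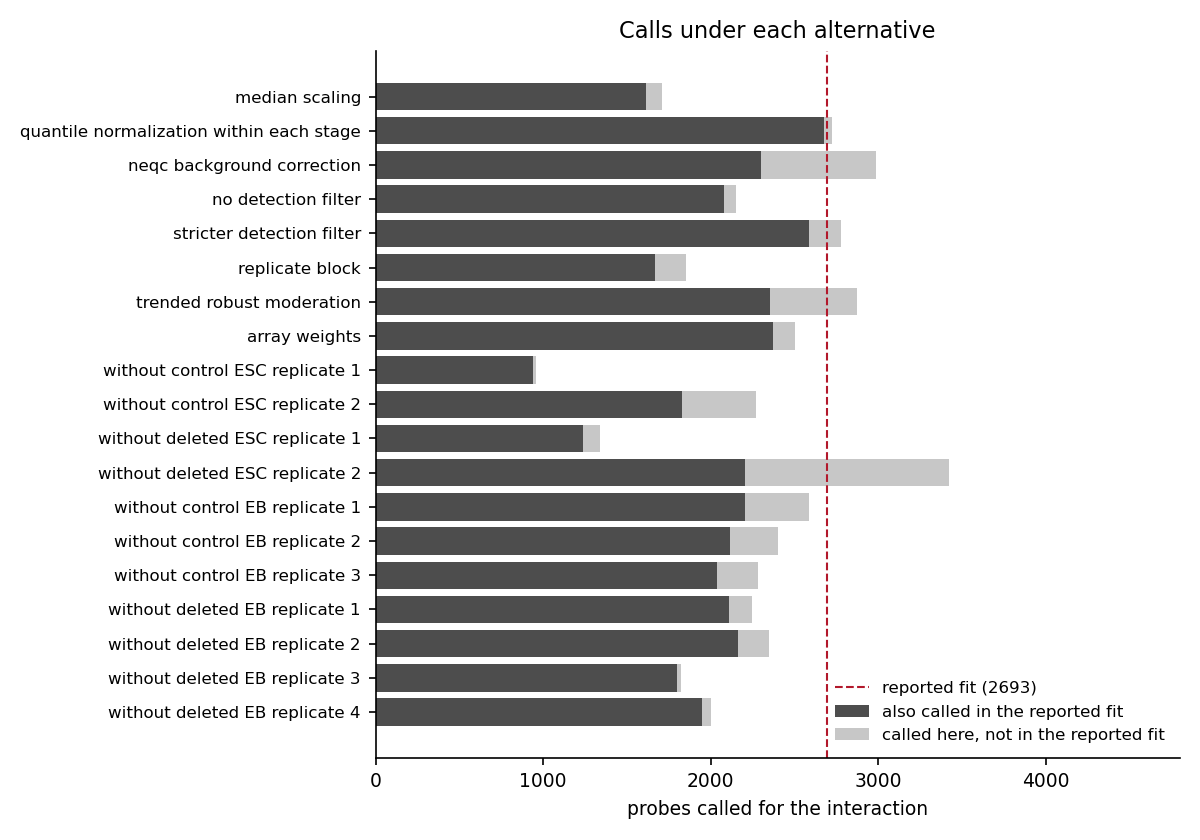
Number of probes called for the interaction under each of 19 alternative settings, with the part shared with the reported fit in dark grey and other calls in light grey. The dashed line marks the reported 2693, and the shortest bar, 958, is the fit without control stem cell replicate 1.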

How the data were processed

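RNA of 11 samples was measured on MouseWG-6 bead arrays and intensities were made with GenomeStudio, per the labels. The deposited intensity of each probe is not normalized between arrays, and no source used here states a background subtraction. Beside it stands the deposited detection p-value, which ranks a probe against negative controls of the same array. All 22 columns matched 1 sample title each.

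Here intensities were quantile normalized over 11 arrays and log2 transformed without an offset, since the lowest was 85.9. Probes with a detection p under 0.05 on at least 2 arrays were kept, 23268 of 45281. A model of 4 group means was fitted (limma 3.58.1, R 4.3.3, default moderation), and p-values were Benjamini-Hochberg adjusted over all tested probes. The 4 named probes were the largest called interactions of each direction and kind of stage change among probes with a detection p under 0.01 on all arrays. The fit was tested on simulated data. Alternatives were median scaling, quantile normalization within stages, neqc (offset 16), 2 other filters, a replicate block, trended robust moderation, array weights and each array left out. The members, classes and named-probe rule were chosen with earlier results of these data known.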

Additional observations from a re-analysis of the deposited data

Results flagged for a closer look

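The genotype difference differed between stages by the interaction test for 2693 probes. Among the named probes it did so by 3.94 for ILMN_2645460, 3.19 for ILMN_1250149, -6.93 for ILMN_1256343 and -4.61 for ILMN_2693895, all on the log2 scale.

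A check for single distant arrays covered 13 measures of the 4 deleted embryoid bodies, and 1 measure had such an array. Chance alone gives about 1 in 20. For ILMN_1256343 replicate 2 read 254.6 units against 140.9 to 143.9, and the gap divided by the whole range was 0.974.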

How the results depend on the processing

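Calls numbered 1707 under median scaling, with 815 negative and 1141 among probes detected on every array. Calls of at least 1 on the log2 scale numbered 2926 after neqc, which widens differences of dim probes. With the replicate number as a block there were 1855 calls, 867 of them positive. Same-numbered arrays of different groups had deviations that correlated at -0.25 to 0.19, above 0.1 in 4 of 13 pairs, and 3 of 10 arrays correlated best with their own number, so the numbers were not taken as pairs. Leaving out 1 array gave 958 to 3420 calls, 420 to 1612 positive, 538 to 1808 negative, 729 to 1928 of at least 1 on the log2 scale, 565 to 2037 with opposite stage changes, and 669 to 2415 among probes detected on every array. Apart from the fewer arrays in these fits, the cause was not tested. The share of opposite stage changes stayed between 54.0% and 59.6% over the 19 alternatives. ILMN_2645460 and ILMN_1256343 passed in all 19, ILMN_1250149 in 18 and ILMN_2693895 in 17. Dim probes limit the sizes, since their fold changes are compressed by background.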

Other observations

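The 22013 probes left out for low detection were fitted in the model without a filter. Their median interaction was -0.0014 on the log2 scale, and 11 of them, 0.05%, were called, against 9.21% of the 23268 tested probes in that same fit. At an unadjusted p under 0.05 there were 701, or 3.18%, against 30.3%. Limma's array weights ran from 0.537 for control embryoid body replicate 1 to 2.50 for deleted embryoid body replicate 3. Both arrays of a stem cell group received the same weight, 1.01 in the control and 0.683 in the deleted line, as a group of 2 cannot rank its members.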
